A study of Mus musculus with 2 samples.

Results

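The genes described here encode glycosyltransferases and sulfotransferases of the families that build mucin-type O-glycans, the sugar chains that make up much of gastric mucus. They were chosen by name, as the array genes whose symbol begins with Galnt, A4gnt, Gcnt, B3gnt, B3galt, B4galt, B4galnt, St3gal, St6gal, Fut or Chst. This rule found 83 of the 27727 genes on the array, with 137 probes. Of these 83 genes, 24 gave a measurement, which is 28.9%, against 28.2% of all genes.

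RNA came from cells of the pylorus, the outlet of the stomach, sorted from mice with the knock-in allele Lgr5-EGFP-ires-CreERT2. In this allele, which both populations carry, green fluorescent protein (GFP) and an inducible Cre recombinase are expressed from the locus of Lgr5, a Wnt pathway receptor that marks epithelial stem cells. Tissue pooled from 20 mice was sorted into cells with high GFP (GFPhigh) and cells with low GFP (GFPlow), and the ages of the mice are not given in the sources used here. The 2 RNA samples were hybridised together on 2 Agilent two-colour arrays, and GFPhigh carried the dye Cy3 on array 1 but Cy5 on array 2. The labels do not say whether both arrays used the same RNA extracts, and the arrays were counted as 1 replicate measured with exchanged dyes. Counted so, they allow no test of one population against the other, and every ± below is the SD of the 2 arrays, read as technical error only.

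O-glycosylation starts in the Golgi, where enzymes of the Galnt family attach N-acetylgalactosamine (GalNAc) to serine or threonine of a mucin. Galactose extends this first sugar to the core 1 structure, Gcnt enzymes branch it, B3gnt and B4galt enzymes lengthen the branches, and sialic acid, fucose, sulfate or N-acetylglucosamine (GlcNAc) end them. The stomach uses these endings differently by cell type. Surface mucous cells make Muc5ac with fucosylated chains, and mucous cells of the glands make Muc6, whose chains A4gnt caps with alpha-linked GlcNAc. The name rule also takes in enzymes that act mainly on glycolipids, proteoglycans or dystroglycan.

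A gene counted as measured when the population with the brighter signal stood well above background on each array. It counted as higher in GFPhigh or in GFPlow when each array gave a ratio of at least 2-fold that way. The 24 measured genes included 2 that were higher in GFPhigh, A4gnt and Galnt3, and 0 that were higher in GFPlow. Among all 7830 measured genes, 1.76% were higher in GFPhigh and 2.69% were higher in GFPlow by the same rule. At these shares, a count of 0 in a family or list of few genes says little, here and below. The 24 log2 ratios of GFPhigh over GFPlow lay between -0.40 and 1.69, with a median of 0.06, against -0.06 for all measured genes. A bulk ratio cannot tell more cells of a type from more RNA per cell.

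**Figure D1:**
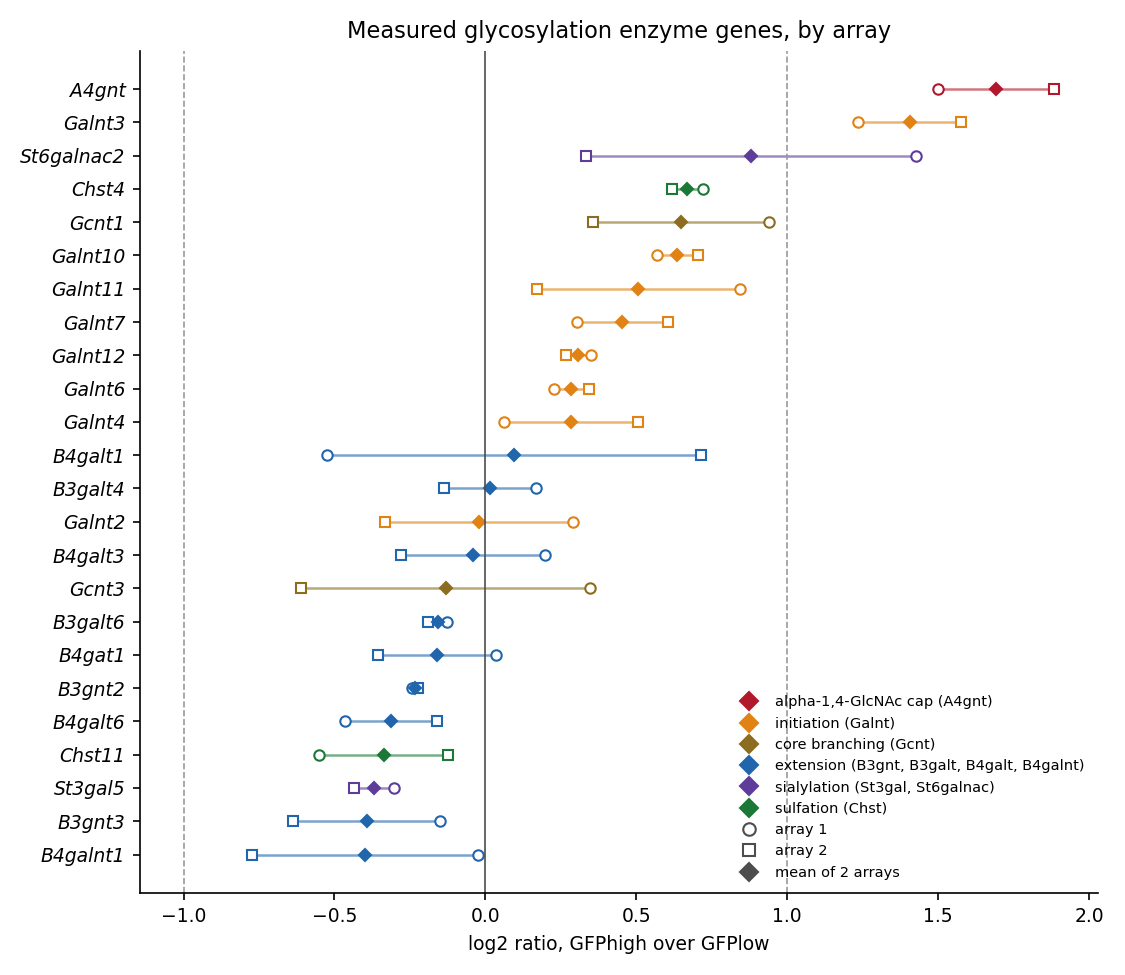
Log2 ratio of GFPhigh over GFPlow for the 24 measured genes. Circles are array 1, squares array 2 and diamonds the mean, and dashed lines mark 2-fold. Colours follow families of gene names, which include genes that act mainly outside mucins. A4gnt and Galnt3 are the only genes whose 2 arrays both lie beyond 2-fold. The arrays lie on opposite sides of 0 for 6 of the 24 genes, and for 35.3% of all measured genes.

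The probe ends and the upstream stretches below show what was measured for the 2 genes past 2-fold, and for Galnt10, whose probes differ. Each probe is 60 bases long, and its first 30 bases are printed 5′ to 3′ in lower case, as the scanner files give them, without marking any part. Coordinates are those of the mm9 build named in the file headers, whose annotation was not used here, so exons are not given.
A4gnt probe at chr9:99521093-99521152, plus strand: aaagagggcaagactgtggttagaggaagc
Galnt3 brighter probe at chr2:65921662-65921721, minus strand: gttgtctcttgttgacttgtctgtcaaata
Galnt3 dimmer probe at chr2:65921743-65921802, minus strand: ccagtcatttggcctttcggtacaaaccag
Galnt10 brighter probe at chr11:57599463-57599522, plus strand: tccagaatccagcagggatgcgtgttgcag
Galnt10 dimmer probe at chr11:57599243-57599302, plus strand: tatctgagacatggtcctgaggccagaact

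The 250 bases upstream of the start of A4gnt and Galnt3 are shown because both genes were higher in the same population. They come from RefSeq (GRCm38.p6), which held a promoter for 64 of the 83 genes, and capitals mark CG dinucleotides (CpG).
A4gnt at chr9:99612252-99612501, plus strand: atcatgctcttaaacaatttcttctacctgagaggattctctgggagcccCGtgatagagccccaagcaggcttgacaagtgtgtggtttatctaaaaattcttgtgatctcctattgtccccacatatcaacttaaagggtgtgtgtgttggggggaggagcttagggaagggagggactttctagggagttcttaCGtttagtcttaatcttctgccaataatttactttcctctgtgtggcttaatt
Galnt3 at chr2:66124794-66125043, minus strand: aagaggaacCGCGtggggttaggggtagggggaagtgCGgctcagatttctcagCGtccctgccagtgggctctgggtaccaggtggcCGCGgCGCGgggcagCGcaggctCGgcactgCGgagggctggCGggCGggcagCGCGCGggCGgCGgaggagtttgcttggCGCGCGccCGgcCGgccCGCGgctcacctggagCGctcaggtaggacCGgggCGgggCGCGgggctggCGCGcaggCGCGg
The stretches differ in composition. A4gnt has 2 CpG and 43.6% G or C, and Galnt3 has 34 CpG and 76.8% G or C, against medians of 6 CpG and 52.4% over 32851 promoters. A search of both strands for 4 motifs matched neither stretch, which says only that these letters are not in these windows. The TATA box motif, TATAAA, is found in 12.4% of all promoters of this length. The motif of TCF/LEF factors, which carry Wnt signals to DNA, was searched as CTTTGAT and is found in 3.21%. The motif of FOX factors was searched as TGTTTAC and is found in 3.17%. The cyclic AMP response element was searched as TGACGTCA and is found in 1.55%.

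A4gnt, the enzyme that adds the alpha-1,4-linked GlcNAc cap of gland mucins, had the largest ratio of the 24 genes. Its normalised log2 intensity was 9.17 on array 1 and 9.34 on array 2 in GFPhigh, against 7.67 and 7.45 in GFPlow. The levels did not overlap, and GFPhigh was higher with either dye. Its ratios of 1.501 (array 1) and 1.89 (array 2) averaged 1.69 ± 0.27, a 3.23-fold difference, which placed A4gnt 48th among the 7830 measured genes. Lgr5, which the sort fixed, was at 2.28 ± 0.06. The array holds a single A4gnt probe.

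The mucins and cell markers around A4gnt give its setting. Muc6, the gland mucin, was at 1.26 on array 1 and 0.86 on array 2, and the trefoil peptide gene Tff2, made by the same gland cells, at 0.95 and 2.68, so that neither was past 2-fold on both arrays. Muc5ac, the surface mucin, was at -2.33 ± 0.37 by its brightest kept probe, and at -1.47 averaged over its kept probes. Of 4 gland and neck mucous cell markers (Muc6, Tff2, Gkn3 and Aqp5), 2 were higher in GFPhigh, and their summed linear intensity was 580497 and 1065719 in GFPhigh, against 205156 and 99677 in GFPlow. All 3 chief cell markers (Pgc, Pga5 and Cblif) were higher in GFPhigh, with sums of 134223 and 202719 in GFPhigh, against 17725 and 12962 in GFPlow. All 4 surface mucous cell markers (Gkn1, Gkn2, Tff1 and Muc5ac) were higher in GFPlow, with sums of 17654 and 26264 in GFPhigh, against 252548 and 156533 in GFPlow. All of these markers were well above background in GFPlow, and only Gkn1 was not in GFPhigh. Sums here and below weigh the brightest probes most. On array 1 the GFPhigh levels of Gkn3 and Tff2 were 18.37 and 17.61 log2 units, against 8.38 for Muc6. The GFPlow levels of Tff1 and Gkn2 on that array were 17.35 and 16.35, against 10.48 for Muc5ac. The sums thus describe few genes and not the number of cells.

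Markers of other cell types also moved with the sort. Of 5 enteroendocrine markers, the hormone-cell genes Chga (-1.46), Chgb (-2.90), Sst (-1.68) and Ghrl (-2.82) were higher in GFPlow, and Gast was at -0.87. Their summed intensity was 2833 and 3609 in GFPhigh, against 17641 and 16248 in GFPlow. Of 4 proliferation markers, Mki67 (-2.28), Birc5 (-2.26) and Mcm4 (-1.74) were higher in GFPlow, with sums over all 4 of 1597 and 1650 in GFPhigh, against 6770 and 6450 in GFPlow. The tuft cell marker Avil was well above background in GFPlow alone, and its measured ratio was 2.13-fold lower in GFPhigh. Dclk1 and Trpm5 were not measured. Neither of the parietal cell markers passed 2-fold on both arrays, with Atp4a at 0.33 ± 0.86 and Atp4b at 0.76 ± 0.56 and sums of 1810 and 2361 in GFPhigh, against 1313 and 1227 in GFPlow. The part of cell type in the ratios of the glycosylation genes was not tested.

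The initiating enzymes had 18 genes on the array, of which 8 were measured. Galnt3 was higher in GFPhigh, 6 more had both GFPhigh levels above both GFPlow levels, and Galnt2 had arrays of opposite sign. Among all measured genes, 25.5% had GFPhigh above GFPlow in this way. The family median was 0.38, with 7 of 8 ratios above 0, compared with 44.3% of all measured genes. Under centring on the array median only 3 of 8 were above 0, and under centring on spike-in RNA 1 of 7. The positive sign of most of the family thus depended on the centring. The family median was -0.28 with array median centring and -0.47 with spike-in centring. These values lay above the medians of all measured genes under the same centrings, -0.49 and -0.81.

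Galnt3 had log2 intensities of 10.27 and 10.80 in GFPhigh, against 9.03 and 9.23 in GFPlow. The populations were apart by more than 1 log2 unit on each array. Its ratios of 1.24 (array 1) and 1.58 (array 2) averaged 1.41 ± 0.24, a 2.65-fold difference. The dimmer Galnt3 probe, on the neighbouring 60 bases, gave 1.24 and 0.83, and another, dimmer probe was not above background in any channel. Both measured probes put GFPhigh higher, but the dimmer one did not reach 2-fold on array 2.

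Galnt10, which prefers peptides that already carry GalNAc, was at 0.64 ± 0.10. Its levels were 11.28 and 11.80 in GFPhigh, against 10.71 and 11.10 in GFPlow. A dimmer Galnt10 probe, upstream of the first on the same chromosome, was well above background in all channels but gave 0.08 on array 1 and -0.12 on array 2. The 2 probes of this gene therefore disagree. Galnt7, another enzyme for peptides that already carry GalNAc, was at 0.45 ± 0.21, and its GFPlow signal passed background on 1 of the 2 arrays.

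Of the remaining initiators, all but Galnt2 had a mean ratio above 0 without reaching 2-fold. Galnt11 was at 0.84 and 0.17, Galnt12 at 0.35 and 0.27, Galnt6 at 0.23 and 0.34, and Galnt4 at 0.06 and 0.50. Galnt2, which acts on a wide range of proteins, had a ratio of 0.29 on array 1 but -0.33 on array 2 (mean -0.02 ± 0.44). Galnt1 and Galnt14 were among the genes at background in every channel. Galnt5 was above background on 1 array in each population and was not measured.

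**Figure D2:**
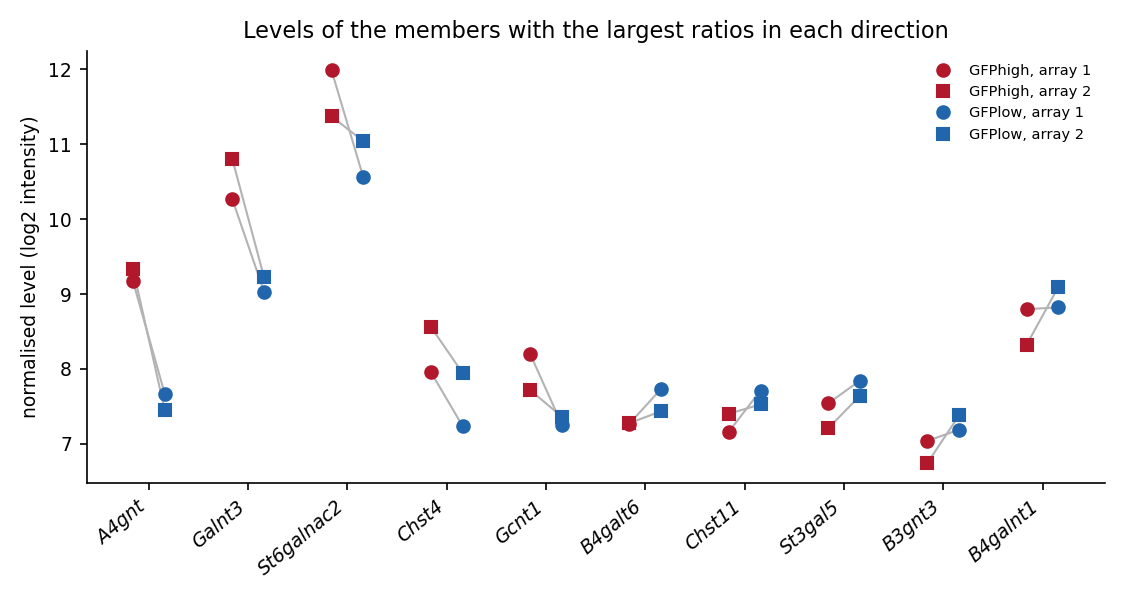
Normalised log2 intensity of the 5 genes most in favour of GFPhigh and the 5 most in favour of GFPlow (red, GFPhigh; blue, GFPlow; circles, array 1; squares, array 2; lines join the populations of an array). A4gnt and Galnt3 are apart by more than 1 unit on each array, and the 5 genes on the right by less than 1 unit. Intensities are comparable within a gene and not between genes.

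The branching enzymes Gcnt1 and Gcnt3 differed in direction between arrays or between genes. Gcnt1, which makes the core 2 branch, was at 8.20 and 7.72 in GFPhigh, against 7.26 and 7.36 in GFPlow. Its ratios were 0.94 and 0.36, with a mean of 0.65 ± 0.41. These values rest on a single probe, since the other Gcnt1 probes were at background in every channel, with mean ratios of 0.09 and -0.01. Gcnt3, the branching enzyme typical of mucus-secreting cells, was at 8.95 and 8.44 in GFPhigh, against 8.60 and 9.05 in GFPlow. Its levels overlapped, with ratios of 0.35 on array 1 and -0.61 on array 2. Gcnt2, the I-branching enzyme, was not well above background.

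None of the chain-extending enzymes reached 2-fold on both arrays. Only 1.76% of all measured genes did so towards GFPhigh and 2.69% towards GFPlow, so none among so few genes says little. Of 9 B3gnt genes 3 were measured, of 5 B3galt genes 2, of 7 B4galt genes 3 and of 4 B4galnt genes 1. B3gnt2, the main enzyme of polylactosamine chains, was at -0.23 ± 0.01, and B3gnt3, which extends core 1, at -0.39 ± 0.34 with levels of 7.04 and 6.75 in GFPhigh, against 7.19 and 7.38 in GFPlow. Both were above background in GFPhigh on 1 array only, so the filter would have dropped them had their ratio been positive. B4galt1, the most widely used beta-1,4-galactosyltransferase, gave -0.52 on array 1 and 0.71 on array 2, the largest spread between arrays of the 24 genes, with an SD of 0.88. Its second kept probe also changed sign, at -0.25 and 0.36. B4galt3 was at -0.04 ± 0.34.

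Sialylation and sulfation genes had few measured members. St6galnac2, which links sialic acid to the GalNAc of an O-glycan, had the third largest mean ratio. Its levels were 11.98 and 11.37 in GFPhigh, against 10.56 and 11.04 in GFPlow, and did not overlap. The ratios were 1.43 on array 1 and 0.33 on array 2, so the gene passed 2-fold on array 1 alone and its mean of 0.88 was close to its SD of 0.77. Dimmer St6galnac2 probes, above background in some channels but not kept, gave smaller mean ratios of 0.39 and 0.31. The sulfotransferase gene Chst4, whose product adds sulfate to GlcNAc of O-glycans, was at 7.96 and 8.56 in GFPhigh, against 7.24 and 7.95 in GFPlow. The GFPhigh level of array 1 and the GFPlow level of array 2 were nearly equal, while the ratios within arrays were close at 0.72 and 0.62, a mean of 0.67 ± 0.07. At a threshold of 1.5-fold Chst4 was the only gene added to A4gnt and Galnt3.

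Of 9 fucosyltransferase genes 0 were measured. Fut2, which makes the H antigen of mucosal secretions, was above background on both arrays in GFPlow and on 1 array in GFPhigh. Its ratios were 0.26 and -0.25, with a mean of 0.01 that made GFPhigh the brighter population, and it was therefore not kept. Fut4, Fut8, Fut11 and the pseudogene Fut4-ps1 were above background on 1 array in at least 1 population. The other 4, Fut1, Fut7, Fut9 and Fut10, were in none. A difference in fucosylation genes was not detectable at this signal.

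Several measured genes act mainly outside mucins, a grouping made after the values were seen. St3gal5, B4galnt1, B3galt4 and B4galt6 serve glycolipid synthesis, where B4galt6 makes lactosylceramide and St3gal5 the first ganglioside, GM3. St3gal5 was at 7.54 and 7.21 in GFPhigh, against 7.84 and 7.64 in GFPlow, with a mean ratio of -0.37 ± 0.09. B4galnt1, which turns gangliosides into their GalNAc-bearing forms, had the lowest ratio of all 24 genes, at -0.40 ± 0.53, with -0.03 on array 1 and -0.77 on array 2. Its levels were 8.80 and 8.32 in GFPhigh, against 8.82 and 9.10 in GFPlow.

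B4galt6 was at 7.27 and 7.28 in GFPhigh, against 7.74 and 7.44 in GFPlow, a mean ratio of -0.31 ± 0.22, and B3galt4 was at 0.02 ± 0.22. Chst11, a chondroitin sulfotransferase gene, was at 7.16 and 7.40 in GFPhigh, against 7.71 and 7.53 in GFPlow, a mean ratio of -0.34 ± 0.30. The other Chst11 probes were at background in every channel, with mean ratios of 0.089 and 0.084. B3galt6, which builds the linker of proteoglycan chains, was at -0.16 ± 0.04, and B4gat1 (B3gnt1 on the array), which modifies dystroglycan, at -0.16 ± 0.28. These ratios were all under 1.5-fold. GFPhigh was above background on 1 array only for St3gal5, B4galt6 and Chst11, which the filter would likewise have dropped at a positive ratio.

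Over the 24 genes, both GFPhigh levels lay above both GFPlow levels for 11 and below them for 7, and the levels overlapped for 6. The shares among all measured genes were 25.5% above and 33.4% below. In 18 of the 24, each channel of each array was above background. Those 18 had a median of 0.28, and the 6227 genes that met the same condition had a median of 0.04. Of the 59 genes not measured, 48 were at background in every channel, 10 were above it in some, and the only probe of B4galt4 was marked as an outlier. The 10 also included the sialyltransferase genes St6gal1, at 0.47 and 0.55, and St3gal6, at 0.94 and 0.03.

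**Figure D3:**
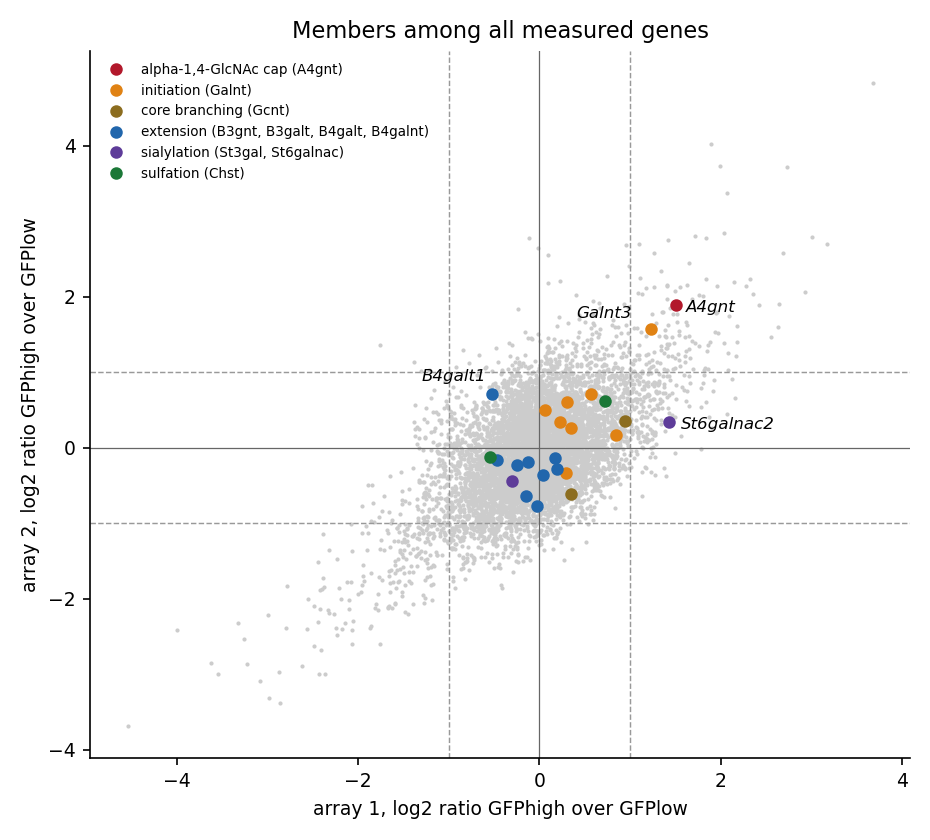
Log2 ratio of GFPhigh over GFPlow on array 1 (horizontal) against array 2 (vertical) for all 7830 measured genes (grey) and the 24 glycosylation genes (coloured by name family), with 2-fold dashed. A4gnt and Galnt3 lie in the upper right corner beyond 2-fold, St6galnac2 passes on array 1 alone, and B4galt1 changes sign.

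The donor sugars of these enzymes come from a separate set of genes, which were described by lists chosen by function. Gfpt1, the rate-limiting enzyme of the hexosamine pathway that leads to the GlcNAc and GalNAc donors, was higher in GFPhigh at 1.53 on array 1 and 1.496 on array 2. Its level was 13.26 and 13.01 in GFPhigh, against 11.72 and 11.51 in GFPlow, and its mean ratio over all kept probes was 1.16. It was the only one of 4 measured hexosamine genes past 2-fold, with Pgm3 at 0.43 ± 0.06, Uap1 at 0.29 ± 0.02 and Uap1l1 at -0.15 ± 0.14. Of 7 galactose and glucose donor genes, Ugdh, which makes the glucuronate donor, was higher in GFPlow at -1.41 ± 0.02. Galk1 was at 0.80 ± 0.78 and Galt at 0.71 ± 1.11.

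Of 4 sialic acid genes 0 passed, and Gne, the first enzyme of the pathway, was at 1.92 on array 1 and 0.75 on array 2. Nanp was at -0.21 and Cmas at -0.20. The fucose donor genes were at -0.71 ± 0.06 for Gmds, 0.55 ± 0.35 for Gfus and 0.20 ± 0.0029 for Fcsk. Of 3 sulfate donor genes 0 passed, with Bpnt1 at -0.48, Papss1 at 0.35 and Bpnt2 at 0.30. Of 8 nucleotide sugar transporter genes 0 passed, the largest ratio being that of Slc35a3 at 0.36 ± 0.43. The core 1 synthase gene C1galt1 was at 0.60 ± 0.50 and its chaperone gene C1galt1c1 at 0.48 ± 0.05.

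**Figure D4:**
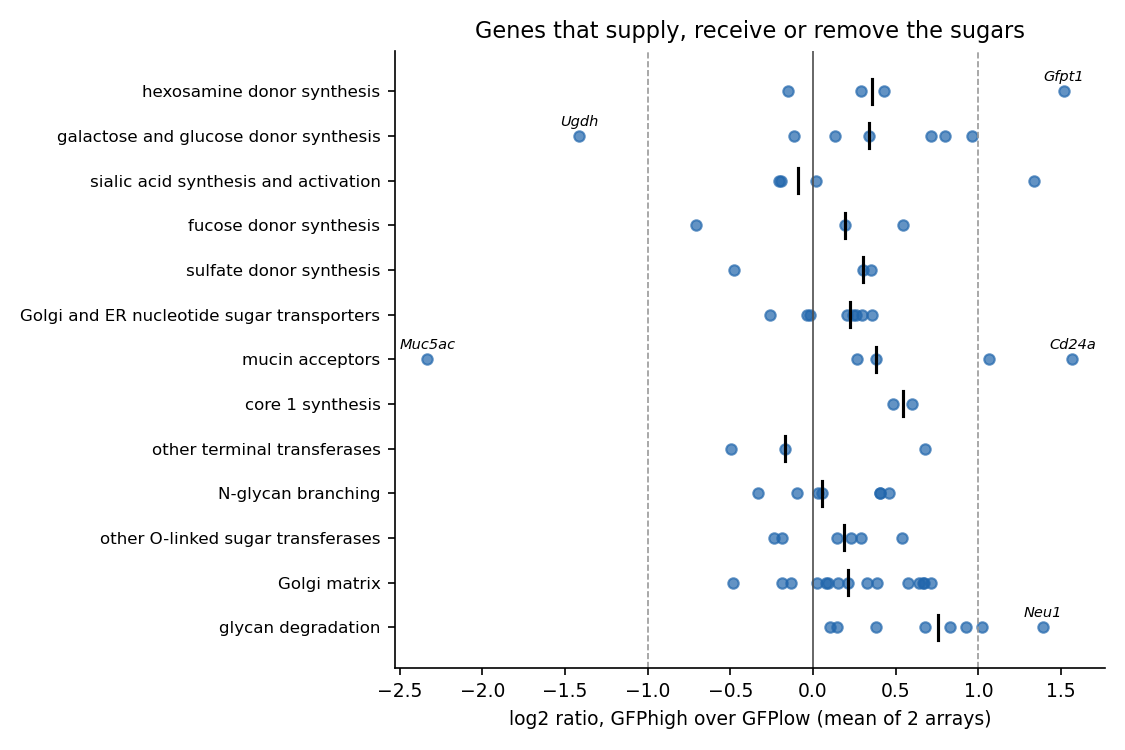
Mean log2 ratio of GFPhigh over GFPlow for measured genes that supply, receive or remove the sugars of these enzymes, one row per list (points, genes; black bars, medians; dashed lines, 2-fold). Named genes were at least 2-fold on both arrays: Gfpt1, Neu1 and Cd24a towards GFPhigh, and Ugdh and Muc5ac towards GFPlow.

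Genes that remove sugars had a median of 0.75 over 8 measured members. Neu1, the lysosomal sialidase gene, was higher in GFPhigh at 1.40 and 1.38. Neu2 was at 1.02 ± 0.41, the galactosidase gene Glb1 at 0.93 ± 0.12 and Hexa at 0.83 ± 0.02, and none of these passed 2-fold on both arrays. Among 5 measured mucins and mucin-like proteins Cd24a, a small surface protein rich in O-glycans, was higher in GFPhigh at 1.57 ± 0.68, and Muc1 was at 0.38 ± 0.11.

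No gene passed 2-fold in the remaining groups of glycan enzymes or among Golgi matrix genes. The counts were 0 of 7 N-glycan branching genes (median 0.06), 0 of 6 genes of other O-linked sugars (0.19), 0 of 15 Golgi matrix genes (0.21) and 0 of 3 other terminal transferase genes (-0.17). The genes with the largest ratios were Man1a at 0.46, Mgat1 at 0.40, Mgat4b at 0.40, Pofut2 at 0.54, Ogt at 0.29 and Pomt1 at -0.24. Among Golgi matrix genes these were Golga2 at 0.71, Golga4 at 0.67 and Golgb1 at 0.66, and among terminal transferases St8sia6 at 0.68, Gal3st1 at -0.49 and St8sia5 at -0.17.

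Across the series, the share of gene spots above background was 28.6% on array 1 and 18.7% on array 2 for GFPhigh, and 25.1% and 31.7% for GFPlow. Pearson's r between the ratios of the 2 arrays was 0.597 over all measured genes, which are not independent replicates. The SD of the difference between arrays was 0.57 over all genes and 0.54 over the 24 genes, and 18 of the 24 had a mean ratio within 1.5-fold. Leukocyte, endothelial and fibroblast markers (12 genes) were at background in every channel. Of 3 smooth muscle markers Acta2 was above it in both populations, at -0.55 ± 0.16, and Myh11 and Des were at background. All 4 epithelial markers were above it in both populations, with Epcam at 0.12 ± 0.51, Cdh1 at -0.16 ± 0.11, Krt18 at 0.08 ± 0.69 and Krt8 at -1.19 ± 0.98, the last with -1.89 on array 1 and -0.49 on array 2.

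The sizes depended on how the arrays were centred. The log2 ratio of A4gnt was 1.69 relative to the intensity-matched average gene, and Galnt3 was at 1.41. With centring on the array median they were 1.19 and 0.73, and with centring on spike-in RNA 0.91 and 0.63, and neither was then 2-fold on both arrays. The median of all genes moved with them, from -0.06 to -0.49 and -0.81. A4gnt and Galnt3 kept a positive ratio in all 12 settings, between 0.91 and 2.20 for A4gnt and between 0.63 and 1.58 for Galnt3.

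**Figure D5:**
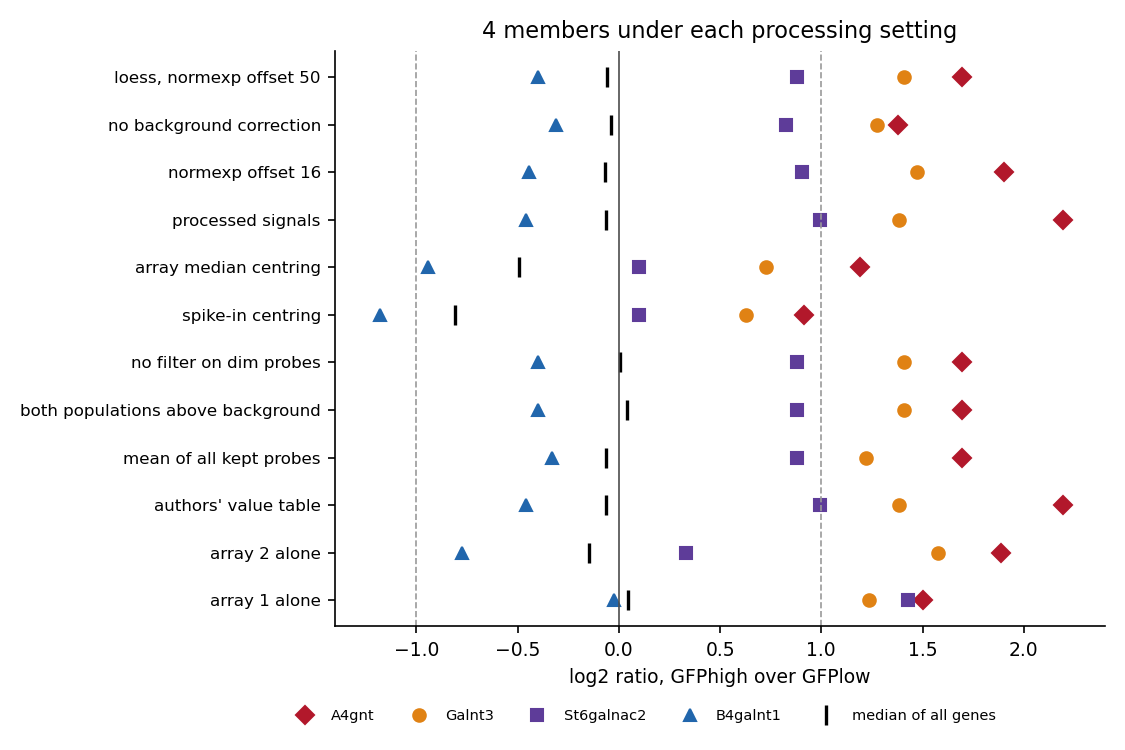
Log2 ratio of GFPhigh over GFPlow for A4gnt, Galnt3, St6galnac2 and B4galnt1 and the median of all genes (black bars) under each of 12 processing settings, with 2-fold dashed. A4gnt is lowest at 0.91 (spike-ins) and highest at 2.20 (the authors' value table), and all 4 genes shift together with the median of all genes under the other centrings.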

How the data were processed

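The authors deposited the scanner output of 2 Agilent arrays. Per the file headers, spot intensity is the mean intensity per dye with a local background, and processed intensities were background-subtracted and dye-normalized by Feature Extraction 10.5.1.1 (9.5.3 per the submitters' processing notes). The deposited log10 ratio is that of processed Cy5 over Cy3. The authors' value table holds this log10 ratio turned to GFPhigh over GFPlow (column medians 0.0188 and -0.0458) and served as an alternative. RNA (150 ng) was labelled by linear amplification, per the labels' protocols.

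Background of mean signals was removed by normexp with an offset of 50 (limma 3.58.1, R 4.3.3), followed by loess within arrays, control spots at weight 0. Outlier-flagged spots were left out, spots of a probe were averaged, and ratios were turned by the dye labels. A gene took its kept probe of highest average signal. Levels per dye follow loess and Aquantile. Offset and normexp pull dim ratios towards 0, and array number limits the precision. Symbols are those of RefSeq GRCm38.p6, and 4 of the 83 genes have a newer symbol than on the array. Normalisation and calling were run on simulated arrays with known folds. These did not exercise the choice among probes or a background filter that differs between populations. The arrays share 1 group, so no batch was tested.

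Members and lists were chosen with earlier results of these data known. Named are all measured members, with full values for those past 2-fold and the 5 largest in each direction, and of each other list those past 2-fold and up to 3 others. One gene that this rule names is not reported here. Alternatives covered background, signals, centring, filter, probe rule, threshold, value table and each array alone.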

Additional observations from a re-analysis of the deposited data

How the results depend on the processing

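The 2 genes higher in GFPhigh and the 0 higher in GFPlow, and the median log2 ratio of 0.06, were recomputed under each alternative. With centring on the array median the counts were 0 and 0 with a median of -0.44 over 25 genes. With spike-in centring, which lowers every ratio by 0.78, they were 0 and 2 (B3gnt2 and St3gal5) with a median of -0.77. At 3-fold 0 genes were higher in GFPhigh. The shift in these medians follows from the centring itself, since the median of all genes moved to -0.49 and -0.81. On each array alone the count higher in GFPhigh was 2 to 3, that in GFPlow was 0, and the median was -0.13 to 0.26. A4gnt and Galnt3 were called under no background correction, offset 16, the processed signals, the value table, both other filters, the mean of kept probes and each array alone. Gcnt1 was added with the processed signals and the value table, and St6galnac2 on array 1 alone. With no filter on dim probes the median was 0.01 over 82 genes. Of the 24 ratios, 17 were below 0 with array median centring, and 20 of 23 with spike-in centring. No paired analysis was made because the 2 arrays were counted as measuring the same RNA pair. Signal over background limits the description to 24 of 83 genes.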
